A study of Brassica rapa subsp. chinensis with 24 samples.

Results

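Salicylic acid and systemic acquired resistance are represented here by 31 identifiers of the 20564 in a transcript table of the leafy vegetable Choy-sum, Brassica rapa subsp. chinensis. They were taken from a list of 36 identifiers chosen by known function: defence outputs, receptors, synthesis and its regulators, pipecolate genes, TGA transcription factors and salicylate turnover. Earlier results of these data were known when the list was chosen. The other 5, AT2G14610, AT1G75040, AT5G52810, AT4G14400 and AT5G06950, are not analysed here. The identifiers take the form of locus codes of Arabidopsis thaliana, a relative of Choy-sum, and the table pairs them with no names. Names and roles below are therefore those of the Arabidopsis loci, given as background from that species, and the sources used here do not say how Choy-sum rows received these codes. The 31 identifiers label 119 rows of the table, between 1 and 11 each, and 6 of them label 1 row. Rows were summed per identifier, so a value can combine several Choy-sum genes or transcript forms, and reads of near-identical copies can be divided among rows by the estimation.

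The 8 groups combine tissue, day and treatment, with 3 independent biological replicates each. SAB plants grew from seeds dressed with a consortium of 3 bacteria, a Streptomyces culture and a combined Agromyces-Bacillus culture. Untreated plants grew from seeds soaked in magnesium sulfate solution. Whole leaves and whole roots of wild-type plants came from plants of day 8, when true leaves had formed, and of day 18, when plants were mature but not yet flowering. The groups are thus SAB and untreated leaf at day 8, SAB and untreated leaf at day 18, and the same 4 groups of root, all grown in peat-moss soil without a pathogen named in the labels. The comparisons ask whether transcripts of this defence pathway differed between SAB and untreated plants, in which tissue and at which age.

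Salicylic acid is a plant hormone of defence against pathogens that feed on living tissue. In Arabidopsis most of it is made in the chloroplast from chorismate by isochorismate synthase (ICS1), exported by EDS5 and completed with the help of PBS3, and the genes of this route are switched on by the factors SARD1 and CBP60g. EDS1 with PAD4 or SAG101 relays signals of immune receptors, NPR1 and its relatives bind salicylate, and NPR1 acts with TGA factors on output genes such as the PR genes. N-hydroxypipecolic acid, made by ALD1 and FMO1, carries systemic acquired resistance to distant leaves, and DMR6, DLO1, BSMT1 and glycosyltransferases hydroxylate, methylate or conjugate salicylate.

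The 24 libraries held 28068078 to 37999455 estimated counts each. Levels are CPM, counts relative to the library total, scaled with TMM factors over the 12 libraries of a tissue, and they are not compared between identifiers. A member is called higher or lower where edgeR's quasi-likelihood test gives a Benjamini-Hochberg adjusted p below 0.05 over all identifiers tested. Of the 31 members, 30 passed the filter on low values in both tissues, and AT4G19660 (NPR4, a salicylate receptor) was listed at 0 in all 24 libraries. In bulk tissue, fewer cells of a type and less RNA per cell cannot be told apart. Of 10 photosynthesis genes listed as leaf markers, 8 were found, and their summed level was 132000 to 150000 CPM in SAB leaves, against 117000 to 143000 CPM in untreated leaves at day 8. At day 18 it was 63700 to 74500 CPM in SAB leaves, against 99300 to 131000 CPM in untreated leaves, and 5 of the 8 were called lower. In roots the same sum was 30.9 to 132 CPM in SAB plants and 29.9 to 169 CPM in untreated plants at day 8, and 34.1 to 72.7 CPM against 40.4 to 553 CPM at day 18, with 1 of the 8 at 0 in every root group. The 8 listed root markers summed to 10.3 to 30.4 CPM in SAB leaves, against 8.72 to 23.7 CPM in untreated leaves over both days. In roots they summed to 4010 to 4200 CPM in SAB plants and 3570 to 4230 CPM in untreated plants at day 8, and to 1630 to 2020 CPM against 2180 to 2420 CPM at day 18. At day 18 the SAB root sums thus lay below all untreated ones, with 0 of the 8 called and a median log2 fold of -0.12 over them. The sums of both root groups lay below those of day 8. All marker sums are on a scale over the 24 libraries. The part of these differences in the results below was not tested.

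In leaves at day 8, 0 of the 30 members were called higher or lower in SAB plants. Over all 17706 identifiers tested, 0.39% were called higher and 0.0339% lower. At an unadjusted p below 0.05 there were 6 members, and DESeq2 called 1, PBS3. The shares of all identifiers under these rules are not given here, so neither count is read as an excess. The median log2 fold of the members was 0.28, against -0.01 over all identifiers, and 23 of the 30 lay above 0. The 3 SAB libraries all lay above the 3 untreated ones for 11 members, against 10.1% of all identifiers, and all below for 0 members, against 9.74%. The 11 were NIMIN1, ICS2, TGA3, GRX480, NDR1, PAD4, TGA5, PBS3, SAG101, NPR3 and CBP60a.

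The members with the smallest p in these leaves were AT5G13320 (PBS3, which joins isochorismate to glutamate on the way to salicylate) and AT3G20600 (NDR1, a membrane protein needed by some immune receptors). PBS3 had 139, 147 and 118 CPM in SAB leaves, against 101, 96.4 and 78.6 CPM in untreated leaves (log2 fold 0.55, SE 0.12, edgeR adjusted p = 0.0954, not called). The SAB libraries lay above the untreated ones with a gap between the groups. NDR1 had 36.5, 51.7 and 42.7 CPM in SAB leaves, against 25.5, 22.5 and 28.3 CPM in untreated leaves (log2 fold 0.78, SE 0.23, edgeR adjusted p = 0.261, not called), again without overlap. AT1G28480 (GRX480, a glutaredoxin that binds TGA factors) was scarce, with 2.64, 3.03 and 1.1 CPM in SAB leaves, against 0, 0.469 and 0.988 CPM in untreated leaves (log2 fold 2.15, SE 0.86, edgeR adjusted p = 0.48, not called). Its groups did not overlap, but the reads behind values this low are few.

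The other regulators of the pathway were not called in leaves at day 8. ICS1 (AT1G74710, isochorismate synthase) had 20.2, 30.1 and 22.9 CPM in SAB leaves, against 22.5, 17.9 and 18.4 CPM in untreated leaves (log2 fold 0.32, SE 0.17, edgeR adjusted p = 0.654, not called). SARD1 (AT1G73805) had 13.4, 28.1 and 11.3 CPM in SAB leaves, against 18.2, 19 and 10 CPM in untreated leaves, and CBP60g (AT5G26920), its partner in activating ICS1, had 32.1, 37.1 and 24.5 CPM against 27.1, 26.6 and 20.9 CPM. Both pairs of groups overlapped, with SAB replicate 2 the highest library. PAD4 (AT3G52430), which works with EDS1, had 73.7, 85.2 and 82.7 CPM in SAB leaves, against 71.7, 60.3 and 48.8 CPM in untreated leaves (log2 fold 0.42, SE 0.21, edgeR adjusted p = 0.623, not called), without overlap. EDS1 (AT3G48090) was scarce, at 0.456, 1.7 and 1.07 CPM in SAB leaves, against 0, 0.56 and 0.995 CPM in untreated leaves. NPR1 (AT1G64280) had 34.4, 28.9 and 35.5 CPM in SAB leaves, against 40.9, 53.8 and 31.7 CPM in untreated leaves, and TGA1 (AT5G65210) had 12.6, 14.7 and 11.6 CPM against 13.1, 10.7 and 12.6 CPM, with overlap in both.

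In leaves at day 18, 6 of the 30 members rose in SAB plants and 0 fell, against 7.91% and 6.52% of all 17706 identifiers. They were 2 TGA factors, 2 CBP60 proteins, the glutaredoxin GRX480 and a salicylate glucosyltransferase. The median log2 fold of the members was 0.46, against 0.00 over all identifiers. With libraries scaled by their totals alone it was 0.62 against 0.17, and 9 members were called. The share of all identifiers called with that scaling is not given here. SAB libraries lay wholly above untreated ones for 12 members, against 14.6% of identifiers, and wholly below for 1, PBS3, against 14.1%. Photosynthesis markers were lower in the same SAB leaves, as given above, and their part in these rises was not tested.

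Among the TGA factors, bZIP proteins that bind the promoters of salicylate-responsive genes, 2 of the 6 tested rose. AT1G22070 (TGA3) had 37.4, 54.1 and 54 CPM in SAB leaves, against 18.5, 20.3 and 15.7 CPM in untreated leaves (log2 fold 1.41, SE 0.16, edgeR adjusted p = 0.000567). Every SAB library was well above every untreated one. AT1G77920 (TGA7) had 48.6, 43.3 and 31.8 CPM in SAB leaves, against 24.7, 20.2 and 18.5 CPM in untreated leaves (log2 fold 0.97, SE 0.19, edgeR adjusted p = 0.00764). Its groups were also separate. Both calls held without any 1 leaf library and under each other setting tried. The other 4, TGA1, TGA4, TGA5 and TGA6, had log2 folds of -0.12, -0.22, 0.36 and 0.30, and were not called.

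Of the 3 CBP60 proteins tested, 2 rose. AT5G26920 (CBP60g, a calmodulin-binding activator of ICS1) had 48.2, 74.5 and 84 CPM in SAB leaves, against 29.3, 33.5 and 27.1 CPM in untreated leaves (log2 fold 1.20, SE 0.21, edgeR adjusted p = 0.00508). AT5G62570 (CBP60a, described in Arabidopsis as a negative regulator of immunity in the same family) had 75.5, 138 and 186 CPM in SAB leaves, against 19.9, 38.8 and 40.1 CPM in untreated leaves (log2 fold 2.02, SE 0.35, edgeR adjusted p = 0.00419). The pair that rose are described as an activator and a negative regulator in Arabidopsis, and for both the SAB libraries lay above all untreated ones. SARD1 (the other activator of ICS1) had 12.2, 22.4 and 15.1 CPM in SAB leaves, against 7.21, 16.5 and 7.87 CPM in untreated leaves, with overlap (log2 fold 0.65, SE 0.43, edgeR adjusted p = 0.355, not called).

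GRX480 had 42.2, 24 and 15.4 CPM in SAB leaves, against 1.86, 1.12 and 5.58 CPM in untreated leaves (log2 fold 3.26, SE 0.78, edgeR adjusted p = 0.0198). The lowest SAB library was above the highest untreated one, and the spread within each group was wide. The call was lost without untreated replicate 1 (edgeR adjusted p = 0.071), untreated replicate 2 (0.0578) or SAB replicate 1 (0.0659) of day 18, with log2 folds of 3.01, 2.87 and 2.77. AT2G43820 (UGT74F2, which attaches glucose to salicylate) had 7.77, 3.49 and 2.09 CPM in SAB leaves, against 1.18, 1.49 and 1.14 CPM in untreated leaves (log2 fold 1.79, SE 0.43, edgeR adjusted p = 0.0191). It was lost without untreated replicate 1 (edgeR adjusted p = 0.0645), untreated replicate 3 (0.0548) or SAB replicate 1 (0.0564), and its log2 fold without SAB replicate 1 was 1.11. UGT74F2 has a close relative, UGT74F1, so reads of the pair may be divided between their rows.

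**Figure D1:**
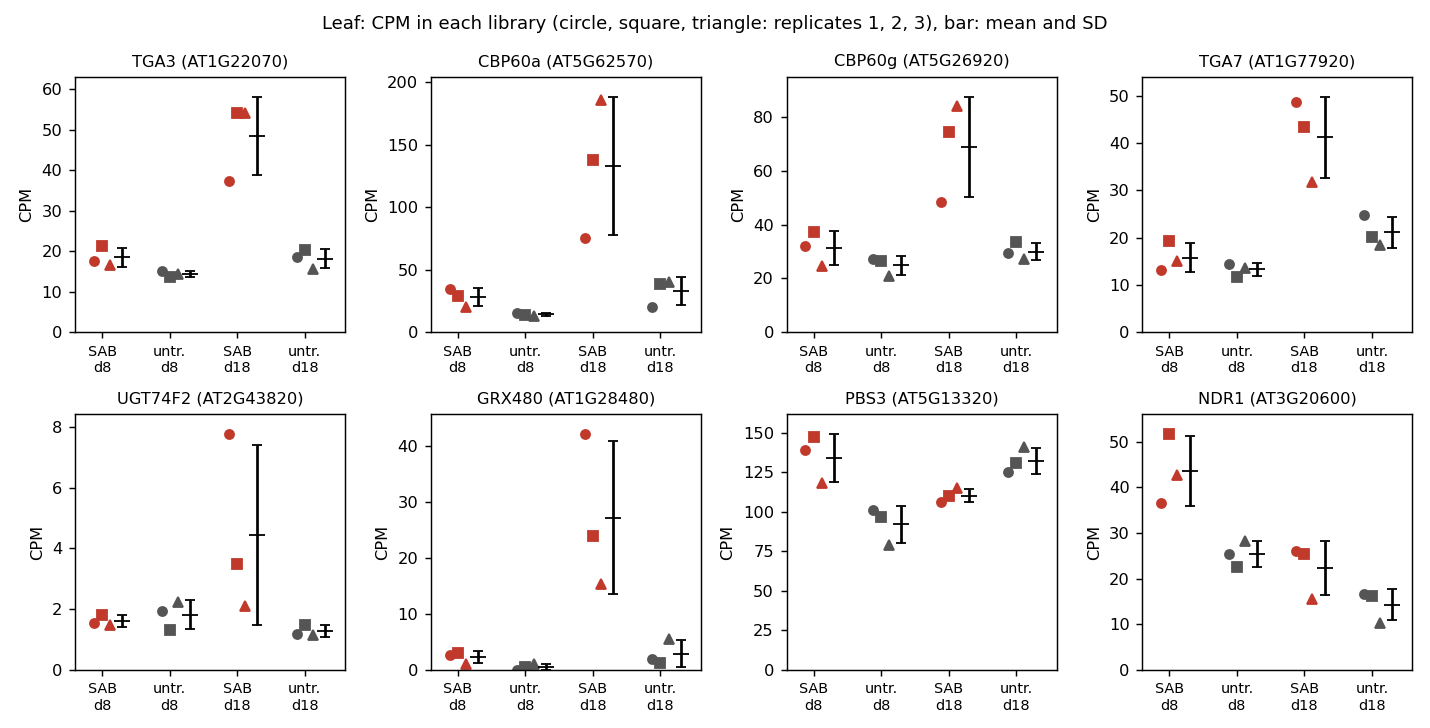
CPM of 8 members in the 12 leaf libraries, by day and treatment; each symbol is 1 library (circle, square and triangle for replicates 1, 2 and 3) and the bar beside them is the mean with its SD (n = 3). At day 18 the SAB libraries of TGA3, CBP60a, CBP60g, TGA7, UGT74F2 and GRX480 all lie above the untreated ones, whereas those of PBS3 lie below them.

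The members ICS1 and PBS3, which act in synthesis, and the output gene PR2 did not pass the test in leaves at day 18. AT1G74710 (ICS1, isochorismate synthase) had 23.3, 23.7 and 19.1 CPM in SAB leaves, against 19.3, 15.8 and 14.8 CPM in untreated leaves (log2 fold 0.41, SE 0.17, edgeR adjusted p = 0.146, not called), with 1 SAB library below the highest untreated one. PBS3 had 106, 110 and 115 CPM in SAB leaves, against 125, 131 and 141 CPM in untreated leaves (log2 fold -0.26, SE 0.12, edgeR adjusted p = 0.165, not called), so all SAB libraries lay below all untreated ones, the reverse of day 8. AT3G57260 (PR2, a beta-1,3-glucanase and a standard output of salicylate signalling) had 134, 391 and 116 CPM in SAB leaves, against 244, 204 and 137 CPM in untreated leaves (log2 fold 0.13, SE 0.42, edgeR adjusted p = 0.879, not called). SAB replicate 2 alone stood high, and both other SAB libraries were below the lowest untreated one.

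Values upstream and at the receptor were as follows. AT3G48090 (EDS1, the lipase-like hub of immune signalling) had 21.2, 8.72 and 15.2 CPM in SAB leaves, against 6.99, 4.72 and 3.03 CPM in untreated leaves (log2 fold 1.61, SE 0.69, edgeR adjusted p = 0.15, not called), without overlap. AT3G52430 (PAD4, its partner) had 65.1, 109 and 109 CPM in SAB leaves, against 72.1, 75.7 and 53.8 CPM in untreated leaves (log2 fold 0.49, SE 0.21, edgeR adjusted p = 0.158, not called), with overlap. AT1G64280 (NPR1, the salicylate receptor and co-activator) had 26.7, 27.5 and 25.9 CPM in SAB leaves, against 24, 22.8 and 24.9 CPM in untreated leaves (log2 fold 0.16, SE 0.16, edgeR adjusted p = 0.575, not called). The NPR1 groups were separate but close, with means of 26.7 ± 0.783 CPM in SAB leaves, against 23.9 ± 1.02 CPM in untreated leaves (SD, n = 3 each).

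The pipecolate genes were scarce in every leaf group. AT2G13810 (ALD1, an aminotransferase that starts pipecolate synthesis) had 0.467, 0.394 and 0.271 CPM in SAB leaves, against 0.419, 0.879 and 0.064 CPM in untreated leaves at day 18. AT1G19250 (FMO1, which hydroxylates pipecolate) had 0, 0.125 and 0 CPM in SAB leaves, against 0.12, 0.534 and 0.0353 CPM in untreated leaves. Both groups overlapped for ALD1, and for FMO1 the SAB libraries were at 0 or near the lowest untreated values, so no change is read at these levels. At day 8 all leaf libraries were below 1 CPM for ALD1, and FMO1 had 1.12, 0.415 and 0.29 CPM in SAB leaves, against 1.04, 0.538 and 0.571 CPM in untreated leaves.

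**Figure D2:**
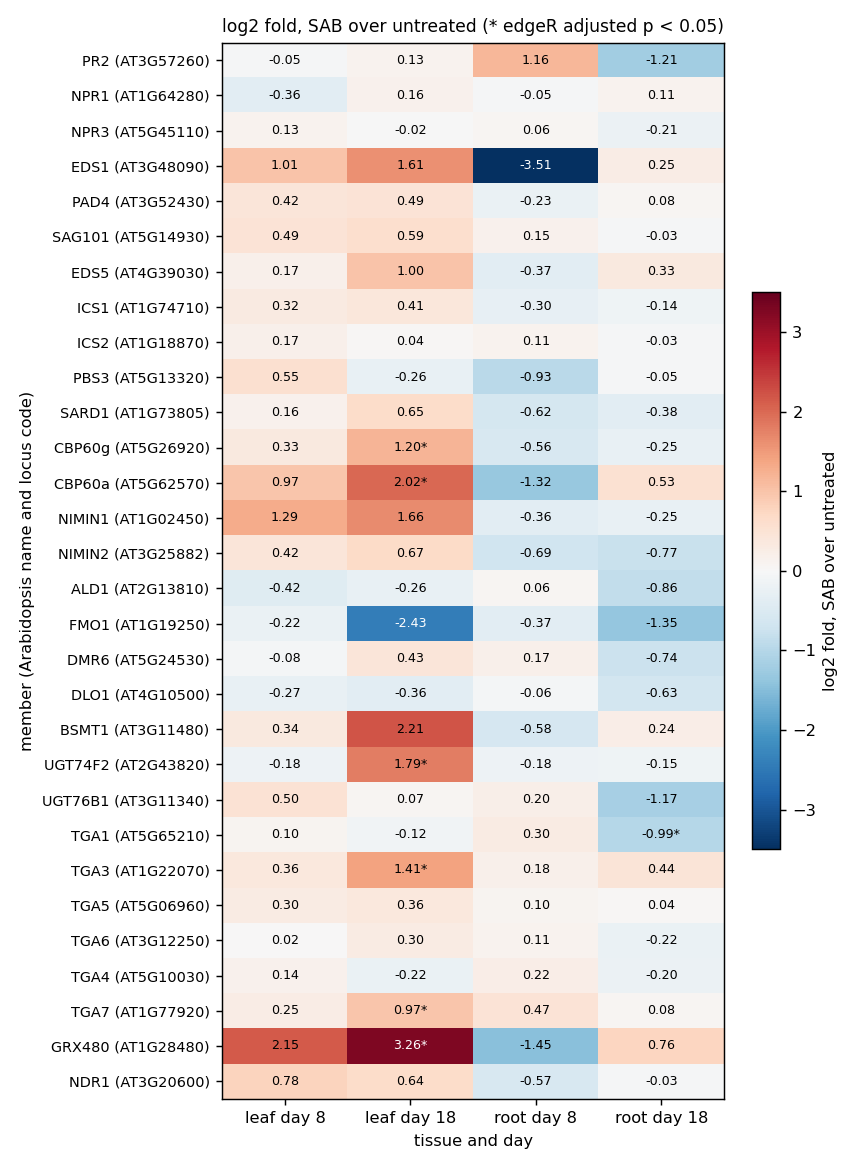
Log2 fold of SAB over untreated plants for the 30 members tested (rows, ordered by role) in leaf and root at day 8 and day 18 (columns); red is higher and blue lower in SAB plants, and a star marks an edgeR adjusted p below 0.05. Stars stand in 6 cells of leaf day 18 and in 1 cell of root day 18, that of TGA1 (log2 fold -0.99), and the dark cell of EDS1 in root at day 8 compares groups listed at or near 0, so it is not read.

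Single libraries differed in these transcripts within groups. In SAB leaves at day 8, replicate 2 was the highest of the 3 for 22 of the 30 members, 73.3% against 35% of all identifiers tested. In SAB leaves at day 18, replicate 2 was the highest for 13 members, 43.3% against 30.1%. Replicate 1 was the highest there for 11, 36.7% against 34.4%. Of the members called at day 18, GRX480, TGA7 and UGT74F2 were highest in SAB replicate 1, and CBP60g and CBP60a in SAB replicate 3. AT5G24530 (DMR6, a salicylate hydroxylase that rises with salicylate in Arabidopsis) had 23.9, 70.5 and 19.9 CPM in SAB leaves, against 40.3, 41.3 and 39.7 CPM in untreated leaves at day 8, and 47.2, 79.7 and 22.9 CPM against 50, 34.9 and 26.1 CPM at day 18. On both days SAB replicate 2 was the highest library of DMR6 and at day 8 both other SAB libraries lay below every untreated one. AT1G02450 (NIMIN1, a small protein that binds NPR1) was also highest in the SAB library numbered 2 of each day. It had 7.11, 18.9 and 6.39 CPM in SAB leaves, against 4.75, 3.51 and 5.02 CPM in untreated leaves at day 8, and 5.22, 22.7 and 5.41 CPM against 4.3, 5.12 and 1.07 CPM at day 18. For PR2 at day 8 the values were 256, 399 and 217 CPM in SAB leaves, against 281, 348 and 276 CPM in untreated leaves, again highest in SAB replicate 2. Plants of the same number on different days are not stated to be related. Without the SAB leaf libraries numbered 2 of both days, an alternative chosen after seeing the data, 5 members rose at day 18 and GRX480 was no longer called (log2 fold 3.33, edgeR adjusted p = 0.0552).

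The change of the SAB effect in leaves between the days was called for 2 members, TGA3 with a higher effect at day 18 and PBS3 with a lower one. Over all identifiers 0.988% were called higher and 1.47% lower. For TGA3 the log2 fold of SAB over untreated leaves at day 18 exceeded that at day 8 by 1.05 (SE 0.23, edgeR adjusted p = 0.043). At day 8 TGA3 had 17.6, 21.2 and 16.7 CPM in SAB leaves, against 15.1, 13.6 and 14.5 CPM in untreated leaves, separate but close. For PBS3 the same difference was -0.81 (SE 0.16, edgeR adjusted p = 0.037). Each call was lost in 11 of the 12 fits without 1 leaf library, with edgeR adjusted p of 0.051 to 0.108 for TGA3 and 0.0539 to 0.0969 for PBS3. The TGA3 call was kept without SAB replicate 1 of day 18, and the PBS3 call without SAB replicate 3 of day 18. Over all settings tried, the log2 value was 0.96 to 1.28 for TGA3 and -0.89 to -0.56 for PBS3.

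The rows behind these sums did not all move alike, as seen in a set of identifiers whose rows were chosen for description after their tests were seen. PBS3 labels 11 rows, of which rows 2, 5 and 10 hold nearly all of the leaf signal. Row 2 had 46.3, 51.5 and 33.2 CPM in SAB leaves, against 26.6, 18.4 and 16.2 CPM in untreated leaves at day 8 (log2 fold 1.11, SE 0.58, edgeR adjusted p over rows = 0.85, not called). At day 18 it had 0.513, 3.72 and 2.53 CPM against 12, 18.6 and 6.96 CPM (log2 fold -2.48, SE 0.61, edgeR adjusted p over rows = 0.0474). Row 10, the most abundant at day 18, had 68.9, 72 and 70.8 CPM in SAB leaves, against 70.2, 71.3 and 80.2 CPM in untreated leaves (log2 fold -0.07, SE 0.09, edgeR adjusted p over rows = 0.782, not called). At day 18 row 2 was thus called and row 10 was not. At day 8 row 10 had 49.8, 53.4 and 52.3 CPM in SAB leaves, against 37.4, 38.3 and 31.8 CPM in untreated leaves (log2 fold 0.54, SE 0.09, edgeR adjusted p over rows = 0.0731, not called). The day 8 difference was thus not confined to row 2. TGA3 labels 2 rows, and row 2 carried its rise (log2 fold 1.40, SE 0.16, edgeR adjusted p over rows = 0.00205). Row 1 of CBP60g (log2 fold 1.29, SE 0.26, edgeR adjusted p over rows = 0.0198) and row 2 of CBP60a (log2 fold 1.96, SE 0.30, edgeR adjusted p over rows = 0.00719) were called as well, as was row 2 of TGA6 (log2 fold 0.85, SE 0.18, edgeR adjusted p over rows = 0.0257), whose sum was not. Row 1 of UGT74F2 had 0.949, 0.655 and 0.539 CPM in SAB leaves, against 1.18, 0.802 and 0.698 CPM in untreated leaves, and row 2 had 6.82, 2.83 and 1.55 CPM against 0, 0.69 and 0.438 CPM, so the higher sum lay in row 2. In roots most of the UGT74F2 signal lay in row 1, which averaged 44.4 CPM in untreated roots at day 8. Row 2 averaged at most 0.161 CPM in any root group. In the fit of single rows, no row of GRX480 or UGT74F2 was called at day 18 in leaves.

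**Figure D3:**
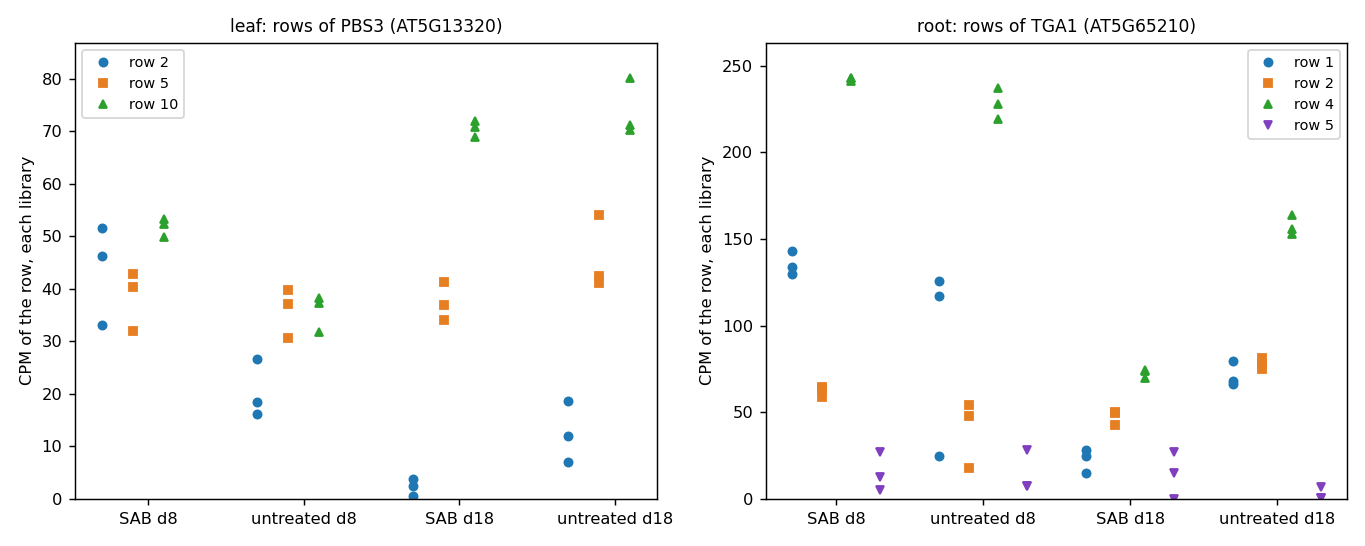
CPM of single table rows in each library, by day and treatment: rows 2, 5 and 10 of PBS3 in leaf (left) and rows 1, 2, 4 and 5 of TGA1 in root (right); each symbol is 1 row in 1 library. Row 2 of PBS3 is highest in SAB leaves at day 8 and lowest in SAB leaves at day 18, and rows 1, 2 and 4 of TGA1 are lower in SAB than in untreated roots at day 18.

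In roots at day 8, 0 of the 30 members were called, against 0.00527% of 18973 identifiers called higher and 0.0685% lower. At an unadjusted p below 0.05 there were 7 members, and DESeq2 called 3 lower, CBP60a, GRX480 and NDR1. For these counts too the shares of all identifiers are not given, so neither is read as an excess. The median log2 fold was -0.12, against -0.02 over all identifiers. SAB libraries lay wholly below untreated ones for 4 members, GRX480, NDR1, NIMIN2 and CBP60a, against 12.2% of identifiers, and wholly above for 3, TGA1, TGA4 and TGA7, against 10.4%. These shares are near those of all identifiers.

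GRX480 had the smallest p in roots of day 8, with 30.3, 31 and 19.6 CPM in SAB roots and 96, 47.4 and 77.4 CPM in untreated roots (log2 fold -1.45, SE 0.30, edgeR adjusted p = 0.0908, not called). All 3 SAB libraries were below the untreated ones, and without untreated replicate 2 of day 8 it was the 1 member called. NDR1 had 78.5, 90.3 and 85.3 CPM in SAB roots and 130, 95.6 and 152 CPM in untreated roots (log2 fold -0.57, SE 0.16, edgeR adjusted p = 0.201, not called), also without overlap. CBP60a had 20.8, 24.3 and 15.1 CPM in SAB roots and 85.2, 40 and 25 CPM in untreated roots (log2 fold -1.32, SE 0.40, edgeR adjusted p = 0.238, not called), with untreated replicate 1 far above the others. Untreated replicate 1 also stood high for PBS3, which had 14.2, 19.9 and 17 CPM in SAB roots and 51.8, 27.6 and 18 CPM in untreated roots (log2 fold -0.93, SE 0.40, edgeR adjusted p = 0.461, not called).

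Untreated replicate 1 of day 8 was the highest of its group for 17 of the 30 members, 56.7% against 27.9% of all identifiers tested. It was so for CBP60g, with 56.7, 58.8 and 55.4 CPM in SAB roots and 124, 78.6 and 50.1 CPM in untreated roots, and for SARD1, with 5.09, 8.37 and 7.24 CPM against 15.9, 10.9 and 5.04 CPM, and both overlapped between the groups. PAD4 had 54.8, 57.8 and 65 CPM in SAB roots and 81.7, 63.4 and 62.7 CPM in untreated roots, and ICS1 had 23.1, 26.7 and 25.6 CPM against 29.9, 21.9 and 40.8 CPM. NPR1 had 40.8, 42.2 and 42.7 CPM in SAB roots and 48.7, 47.8 and 33.2 CPM in untreated roots, and DMR6 had 20.8, 24.3 and 27.8 CPM against 26.1, 21.3 and 17.4 CPM. All 4 overlapped, and none was called. PR2 was low and scattered, at 2.45, 24.3 and 23.6 CPM in SAB roots and 13.6, 5.29 and 3.65 CPM in untreated roots. EDS1 was listed at 0 in all 3 SAB roots and in 2 of the 3 untreated roots. ALD1 had 3, 4.48 and 5.9 CPM in SAB roots and 5.03, 3.16 and 4.67 CPM in untreated roots, and FMO1 had 1.06, 0.953 and 2.36 CPM against 2.28, 1.34 and 2.06 CPM, also with overlap.

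In roots at day 18, 1 of the 30 members was called, AT5G65210 (TGA1, a TGA factor whose activity depends on its redox state), which fell. Over all 18973 identifiers 0.564% were called lower and 0.2% higher. TGA1 had 146, 164 and 162 CPM in SAB roots and 303, 318 and 315 CPM in untreated roots (log2 fold -0.99, SE 0.12, edgeR adjusted p = 0.00596). The libraries of each group lay close together and far from the other group, and the call held under every setting and without any 1 root library, with log2 folds of -1.02 to -0.93. The summed root markers were also lower in these SAB roots, at 1630 to 2020 CPM against 2180 to 2420 CPM in untreated roots. Of the 8 markers 0 were called, with a median log2 fold of -0.12, and their part in the fall of TGA1 was not tested. At day 8 TGA1 had 460, 450 and 469 CPM in SAB roots and 404, 411 and 309 CPM in untreated roots (log2 fold 0.30, SE 0.12, edgeR adjusted p = 0.423, not called), with SAB above untreated. Within TGA1, row 4 was called at day 18, with 73.6, 74.3 and 69.5 CPM in SAB roots and 153, 156 and 164 CPM in untreated roots (log2 fold -1.11, SE 0.09, edgeR adjusted p over rows = 0.00106). Rows 1 and 2 were also lower in each SAB library but were not called, and row 5 overlapped between the groups, with 0, 14.8 and 27.2 CPM in SAB roots and 6.78, 0.74 and 0.355 CPM in untreated roots.

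For 3 of the 5 enzymes of salicylate turnover tested, values were lower in SAB roots at day 18, without overlap and without passing the test. AT3G11340 (UGT76B1, a glucosyltransferase that conjugates salicylate, isoleucic acid and N-hydroxypipecolic acid in Arabidopsis) had 10.9, 9.88 and 5.58 CPM in SAB roots and 22.5, 17.9 and 19 CPM in untreated roots (log2 fold -1.17, SE 0.23, edgeR adjusted p = 0.0535, not called). DMR6 had 18.2, 26.3 and 15.5 CPM in SAB roots and 39.8, 33.2 and 26.9 CPM in untreated roots (log2 fold -0.74, SE 0.23, edgeR adjusted p = 0.207, not called). AT4G10500 (DLO1, a salicylate hydroxylase like DMR6) had 17.3, 33 and 23.9 CPM in SAB roots and 36.6, 35.3 and 42.8 CPM in untreated roots (log2 fold -0.63, SE 0.23, edgeR adjusted p = 0.275, not called). None of the 3 had overlapping groups. The rest of the class overlapped. BSMT1 had 71.4, 24.5 and 15.5 CPM in SAB roots and 16, 5.91 and 72.8 CPM in untreated roots, with a log2 fold of 0.24. UGT74F2 had 20.8, 21 and 13.5 CPM against 25.5, 19.2 and 16.7 CPM. In all, SAB libraries lay wholly below untreated ones for 6 members, UGT76B1, TGA6, DLO1, DMR6, CBP60g and TGA1, against 8.7% of identifiers, and wholly above for 1, TGA3, against 7.72%. The median log2 fold of the members was -0.15, against 0.00 over all identifiers. DESeq2 called 3 members, TGA1, TGA3 and UGT76B1, and the share of all identifiers it called is not given here. In edgeR, UGT76B1 joined TGA1 without untreated replicate 3 of day 8 or without SAB replicate 1 of day 18, for 2 calls.

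The only defence output tested, PR2, and the core of the pathway gave no call in roots at day 18. PR2 had 15.1, 8.17 and 20.7 CPM in SAB roots and 59.2, 36.6 and 5.73 CPM in untreated roots (log2 fold -1.21, SE 0.89, edgeR adjusted p = 0.664, not called), with a wide spread within the untreated group. EDS1 was scarce, at 0.705, 1.99 and 1.6 CPM in SAB roots and 1.4, 0.891 and 1.31 CPM in untreated roots. PAD4 had 80.4, 136 and 147 CPM in SAB roots and 101, 117 and 125 CPM in untreated roots, ICS1 had 14, 18.1 and 20.1 CPM against 29.2, 15.7 and 12.9 CPM, and NPR1 had 33.2, 39.3 and 45.3 CPM against 35.4, 36.4 and 37 CPM, each with overlapping groups. SARD1 had 14.3, 25.3 and 13.8 CPM in SAB roots and 27.7, 21.6 and 20.4 CPM in untreated roots, and CBP60g had 66.2, 74.2 and 79.4 CPM against 86.3, 87.1 and 87.2 CPM (log2 fold -0.25, SE 0.25, edgeR adjusted p = 0.794, not called). ALD1 had 1.32, 2.62 and 0.516 CPM in SAB roots and 3.99, 2.41 and 1.73 CPM in untreated roots, and FMO1 had 0.273, 1.82 and 0.233 CPM against 2.96, 1.54 and 1.51 CPM. SAB replicate 2 of day 18 was the highest root library of its group for 19 of the 30 members, 63.3% against 30.5% of all identifiers tested.

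**Figure D4:**
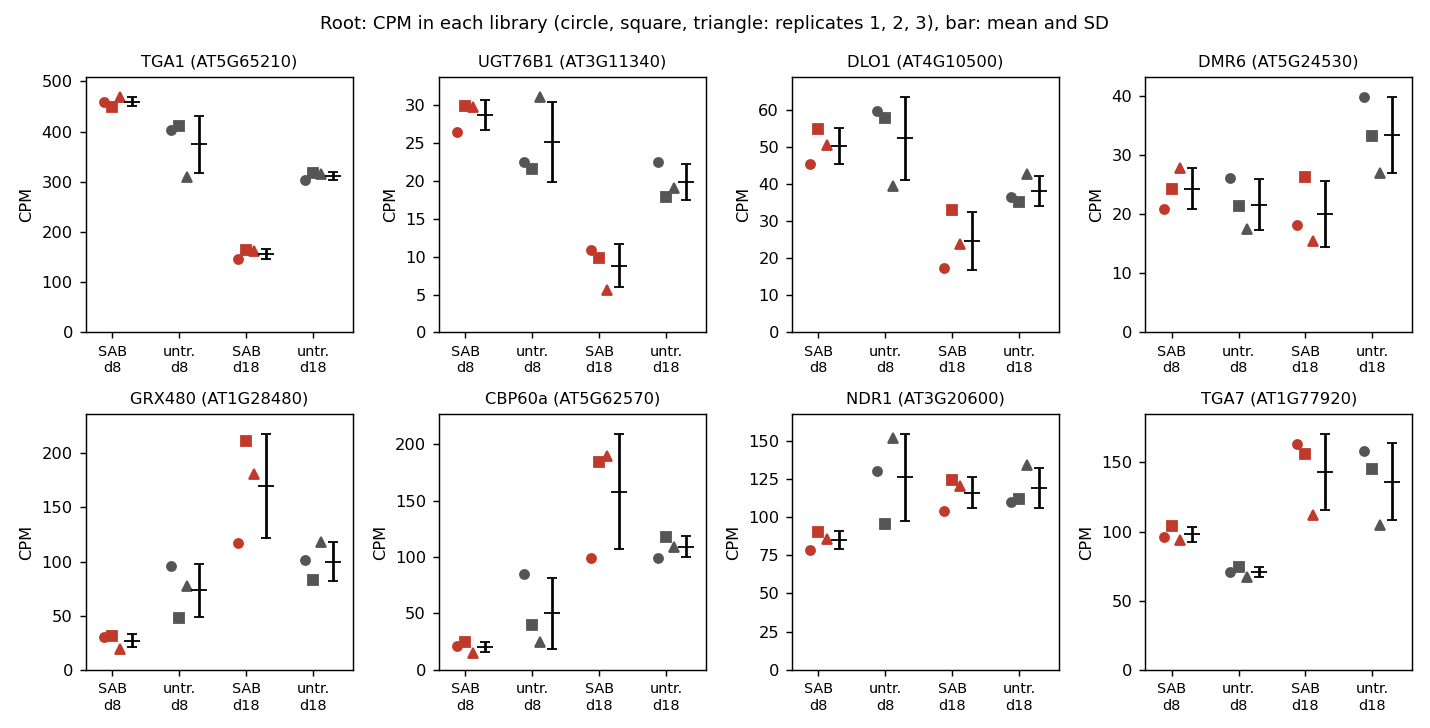
CPM of 8 members in the 12 root libraries, by day and treatment; each symbol is 1 library (circle, square and triangle for replicates 1, 2 and 3) and the bar beside them is the mean with its SD (n = 3). At day 18 the SAB libraries of TGA1 sit between 146 and 164 CPM and the untreated ones between 303 and 318 CPM. At day 8 the SAB libraries of GRX480, CBP60a and NDR1 lie below the untreated ones, and edgeR called none of these members there.

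The change of the SAB effect in roots between the days was called for TGA1, lower at day 18, and for GRX480, higher at day 18. Over all identifiers 0.248% were called lower and 0.822% higher. For TGA1 the log2 fold at day 18 minus that at day 8 was -1.29 (SE 0.17, edgeR adjusted p = 0.016), and it was lost without SAB replicate 1 of day 8 (edgeR adjusted p = 0.0658) or SAB replicate 3 of day 8 (0.072). For GRX480 the difference was 2.21 (SE 0.42, edgeR adjusted p = 0.0417). GRX480 at day 18 had 117, 211 and 181 CPM in SAB roots and 101, 82.6 and 118 CPM in untreated roots, with 1 SAB library among the untreated ones. Its call was lost in 10 of the 12 fits without 1 root library, with edgeR adjusted p of 0.0569 to 0.117 and log2 values of 1.97 to 2.36. Only the fits without untreated replicate 2 of day 8 or without SAB replicate 1 of day 18 kept it.

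The SAB effect differed between the tissues for 6 members, 3 at each day, all lower in root than in leaf. At day 8 these were NDR1 (root minus leaf -1.36, SE 0.30, edgeR adjusted p = 0.0145), CBP60a (-2.29, SE 0.55, edgeR adjusted p = 0.0313) and GRX480 (-3.60, SE 0.89, edgeR adjusted p = 0.0384). Each had values above untreated in SAB leaves and below untreated in SAB roots, with no overlap in either tissue. Over all 19681 identifiers 1.98% were called lower and 0.102% higher. At day 18 they were TGA1 (-0.86, SE 0.18, edgeR adjusted p = 0.0195), TGA3 (-0.98, SE 0.21, edgeR adjusted p = 0.0291) and CBP60g (-1.44, SE 0.33, edgeR adjusted p = 0.0393), against 0.701% of identifiers lower and 0.32% higher. TGA3 libraries of SAB plants lay above the untreated ones in both tissues at day 18, but edgeR called TGA3 in leaf only. In root TGA3 had 50.7, 63.8 and 50.5 CPM in SAB plants and 44.9, 35.4 and 41.7 CPM in untreated plants. The estimates of the tissues thus differ in size and not in sign. The median of this difference over the members was -0.77 at day 18 and -0.27 at day 8, against -0.03 and -0.02 over all identifiers.

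These differences between tissues were sensitive to single libraries. At day 8, 0 members were called without SAB root replicate 1, SAB leaf replicate 2 or untreated leaf replicate 2, and 0 with scaling by library totals alone. At day 18, 0 were called without SAB root replicate 1. The log2 values over all settings were -1.53 to -1.15 for NDR1, -2.60 to -1.69 for CBP60a and -4.58 to -3.10 for GRX480 at day 8, and -1.06 to -0.75 for TGA1, -1.16 to -0.89 for TGA3 and -1.66 to -1.28 for CBP60g at day 18. Each kept its sign in all of them. Of 17 settings each, 12 of them without 1 library, the call was lost in 9 for CBP60a (highest edgeR adjusted p = 0.112), 4 for NDR1 (0.078) and 11 for GRX480 (0.114). At day 18 it was lost in 12 for CBP60g (0.0939), 8 for TGA3 (0.0778) and 1 for TGA1 (0.0561, without SAB root replicate 1). The CBP60g call was kept in 1 of the fits without a library, that without SAB leaf replicate 1, and the TGA3 call without replicate 2 of untreated root, SAB root or untreated leaf, or without SAB leaf replicate 1. The CBP60a call was kept without replicate 2 or 3 of untreated root, SAB root replicate 2 or SAB leaf replicate 3, and the GRX480 call without untreated root replicate 2, untreated leaf replicate 3 or SAB leaf replicate 3.

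In untreated leaves, 9 members were higher and 2 lower at day 18 than at day 8, against 20% and 20.5% of identifiers. The 6 with the smallest adjusted p were TGA4, SAG101, NPR1, BSMT1, TGA1 and PBS3. AT5G10030 (TGA4, the closest relative of TGA1) had 50.9 ± 6.79 CPM at day 18 and 31.3 ± 3.68 CPM at day 8 (SD, n = 3 each; log2 fold 0.70, SE 0.12, edgeR adjusted p = 0.000804). AT5G14930 (SAG101, a partner of EDS1 named for leaf senescence) had 30.2 ± 8.28 CPM at day 18 and 12.7 ± 1.06 CPM at day 8 (log2 fold 1.25, SE 0.25, edgeR adjusted p = 0.00241). NPR1 went down, with 23.9 ± 1.02 CPM at day 18 and 42.2 ± 11.1 CPM at day 8 (log2 fold -0.82, SE 0.16, edgeR adjusted p = 0.00252). AT3G11480 (BSMT1, which makes volatile methyl salicylate) had 17.3, 14 and 57.3 CPM at day 18 and 0.0722, 1.08 and 1.09 CPM at day 8 (log2 fold 5.23, SE 1.06, edgeR adjusted p = 0.00274). It varied over a wide range in SAB leaves of day 18 too, at 295, 22 and 92.4 CPM. TGA1 and PBS3 rose as well, by log2 folds of 0.71 and 0.52 (edgeR adjusted p = 0.0031 and 0.00453).

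In untreated roots, 6 members were higher and 1 lower at day 18 than at day 8, against 8.22% and 8.25% of identifiers. The 6 include EDS1, which passed the filter on low values only through root libraries of day 18, so its call is not read as a rise. TGA7 had 136 ± 27.9 CPM at day 18 and 70.5 ± 3.51 CPM at day 8 (SD, n = 3 each; log2 fold 0.95, SE 0.17, edgeR adjusted p = 0.00507). TGA3 had 40.7 ± 4.86 CPM at day 18 and 25.4 ± 2.82 CPM at day 8 (log2 fold 0.68, SE 0.14, edgeR adjusted p = 0.00776). UGT74F2 fell to 20.5 ± 4.55 CPM at day 18, against 47.6 ± 13.6 CPM at day 8 (log2 fold -1.22, SE 0.24, edgeR adjusted p = 0.00732). AT4G39030 (EDS5, the chloroplast exporter) had 25.9 ± 6.38 CPM at day 18 and 9.68 ± 4.66 CPM at day 8 (log2 fold 1.42, SE 0.36, edgeR adjusted p = 0.0223). AT5G45110 (NPR3, a salicylate receptor) had 40.2 ± 5.72 CPM at day 18 and 29 ± 2.41 CPM at day 8 (log2 fold 0.47, SE 0.12, edgeR adjusted p = 0.0247). EDS1 was called too (edgeR adjusted p = 0.0178), with 1.4, 0.891 and 1.31 CPM at day 18 and 0, 0 and 0.12 CPM at day 8, levels too low for a fold. The summed root markers were lower at day 18 in the same untreated roots, at 2180 to 2420 CPM against 3570 to 4230 CPM at day 8, and their part in these differences was not tested. These comparisons share their untreated libraries with the SAB comparisons above.

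Roots and leaves of untreated plants differed in most members. At day 8, 14 members were higher and 8 lower in root than in leaf, against 32.7% and 29% of identifiers, and at day 18, 16 were higher and 6 lower, against 33.4% and 28%. These counts come from fits without pairing, though same-numbered root and leaf libraries of day 18 deviated together. A replicate block, shared over all 24 libraries and so not a block for each pair, gave 17 higher and 7 lower at day 18. TGA5 was then no longer called, and DMR6, NPR3 and NIMIN1 were called. These levels are CPM on TMM factors over all 24 libraries. TGA1 had 292 ± 38 CPM in root and 15.8 ± 1.68 CPM in leaf at day 8 (SD, n = 3 each; log2 fold 4.21, SE 0.14, edgeR adjusted p = 8.02e-15), and 237 ± 6.99 CPM against 25.8 ± 3.4 CPM at day 18. UGT74F2 had 37.3 ± 11.6 CPM in root and 2.37 ± 0.617 CPM in leaf at day 8 (log2 fold 3.98, SE 0.38, edgeR adjusted p = 1.95e-08), and 15.5 ± 3.38 CPM against 1.65 ± 0.235 CPM at day 18. Its root signal lay mostly in another row than the one that carried the rise in SAB leaves. DLO1 had 40.7 ± 7.78 CPM in root and 1.99 ± 0.8 CPM in leaf at day 8 (log2 fold 4.33, SE 0.42, edgeR adjusted p = 2.61e-08). GRX480 had 57.4 ± 18.7 CPM in root and 0.629 ± 0.639 CPM in leaf at day 8 (log2 fold 6.42, SE 0.72, edgeR adjusted p = 2.02e-07). TGA7 and NDR1 were higher in root as well, by log2 folds of 1.67 and 1.57 at day 8 and 1.91 and 2.27 at day 18 (each called by edgeR).

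PR2, PBS3, ICS2 and EDS1 were called lower in root than in leaf at both days. At day 8 EDS1 had 0, 0 and 0.0965 CPM in untreated roots and 0, 0.728 and 1.29 CPM in untreated leaves. These groups overlapped near 0, so the day 8 difference of EDS1 is not read. SAG101 was called at day 18 but not at day 8, with a log2 fold of -0.24 at day 8. ICS2 (AT1G18870, the second isochorismate synthase) had log2 folds of -1.21 at day 8 and -1.01 at day 18. PR2 had 10.4, 4.1 and 2.93 CPM in untreated roots and 368, 453 and 357 CPM in untreated leaves at day 8 (log2 fold -6.08, SE 0.90, edgeR adjusted p = 7.84e-06), and 44.8, 27.6 and 4.39 CPM against 316, 262 and 181 CPM at day 18 (log2 fold -3.31, SE 0.79, edgeR adjusted p = 0.00123). The library with the highest root value was below every leaf library at both days. The PR2 sums of the tissues came partly from different rows. On the scale of the leaf libraries, row 4 averaged 264 CPM in untreated leaves at day 8. In untreated roots the sum was spread over rows 1, 4 and 6, and row 6 was at 0 in every leaf library. PBS3 had 32 ± 1.24 CPM in root and 172 ± 13 CPM in leaf at day 18 (log2 fold -2.43, SE 0.31, edgeR adjusted p = 1.29e-06), and SAG101 had 11.1 ± 1.88 CPM against 39.4 ± 11.4 CPM (log2 fold -1.83, SE 0.23, edgeR adjusted p = 8.74e-07). With libraries scaled by totals alone the median over all identifiers moved to 0.81 at day 8 and 0.86 at day 18, against 0.06 and 0.10 with TMM. The members then split into 20 higher and 3 lower at day 8 and 21 higher and 4 lower at day 18. The shares of all identifiers called with that scaling are not given here. The signs of NPR1 and PAD4 at day 8 and of TGA4 at day 18 turned round.

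**Figure D5:**
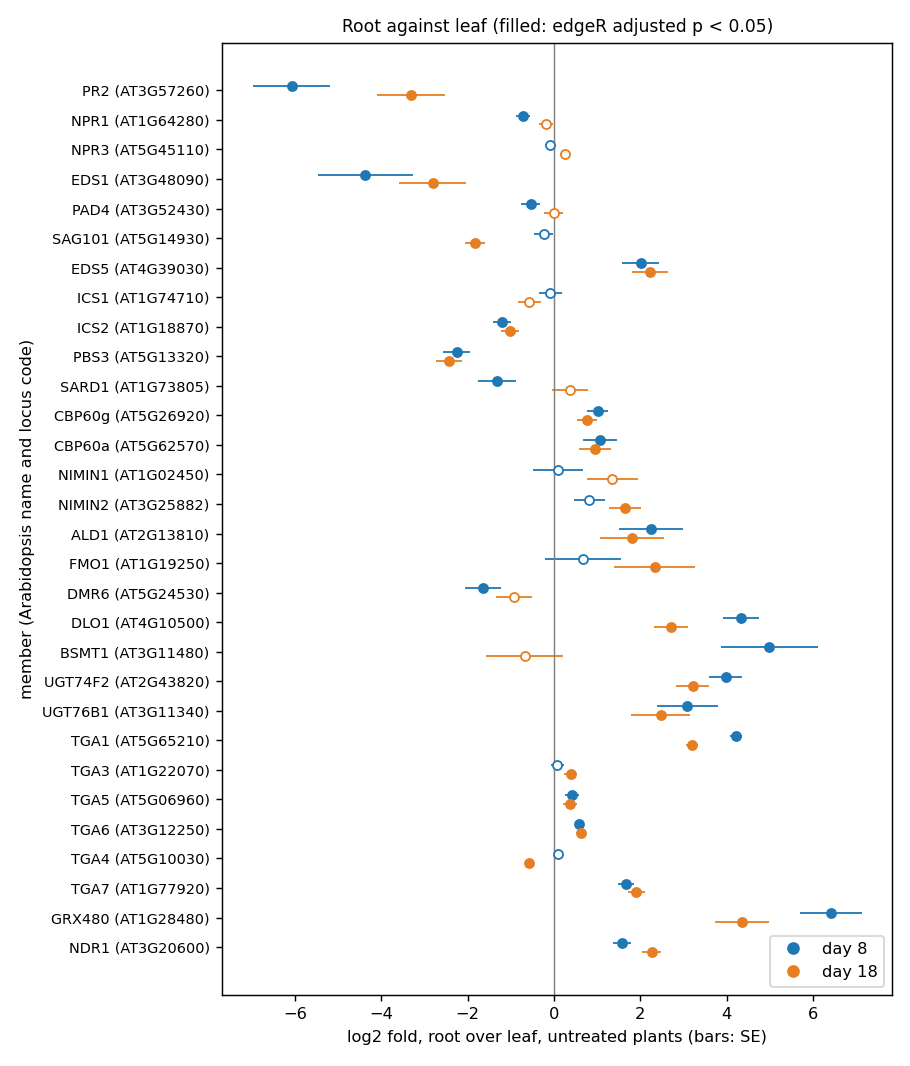
Log2 fold of root over leaf in untreated plants for the 30 members tested, at day 8 (blue) and day 18 (orange); bars are standard errors and filled points have an edgeR adjusted p below 0.05. GRX480, TGA1, DLO1 and UGT74F2 lie far to the root side, with day 8 values of 6.42, 4.21, 4.33 and 3.98, and PR2 lies far to the leaf side at -6.08.

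Of 28 other genes tied to salicylate and systemic acquired resistance, listed for comparison, 22 were tested in leaf and 24 in root. That list too was chosen with earlier results of these data known. In leaves at day 18, 6 rose and 1 fell, against 7.91% and 6.52% of all identifiers, and their median log2 fold was 0.34, against 0.00 over all identifiers. WRKY53 (AT4G23810, a senescence and defence factor) averaged 14.8 CPM in SAB leaves, against 2.97 CPM in untreated leaves at day 18 (log2 fold 2.31, SE 0.28, edgeR adjusted p = 0.000815). WRKY18 (AT4G31800) averaged 172 CPM against 50 CPM (log2 fold 1.78, SE 0.24, edgeR adjusted p = 0.00119). EPS1 (AT5G67160, an acyltransferase-family enzyme that releases salicylate in the step after PBS3) averaged 56.9 CPM against 26.6 CPM (log2 fold 1.10, SE 0.28, edgeR adjusted p = 0.0251), and PAL2 (AT3G53260, a phenylalanine ammonia-lyase) 194 CPM against 134 CPM (log2 fold 0.54, SE 0.12, edgeR adjusted p = 0.0164). The other 2 that rose were UGT74F1 and WRKY62, and GLY1 fell. In roots 1 fell at day 8, against 0.0685% of all identifiers, and at day 18, 1 rose and 2 fell, against 0.2% and 0.564%. EARLI1 (AT4G12480, a relative of the priming protein AZI1) fell at day 8, averaging 1.64 CPM in SAB roots and 10.8 CPM in untreated roots, and rose at day 18, at 11.2 CPM against 4 CPM (log2 fold 1.49, SE 0.25, edgeR adjusted p = 0.0236). WRKY70 (AT3G56400, a factor between salicylate and jasmonate responses) fell in SAB roots at day 18, at 32.2 CPM against 82.6 CPM (log2 fold -1.36, SE 0.21, edgeR adjusted p = 0.0185), as did WRKY38 (log2 fold -2.24, SE 0.38, edgeR adjusted p = 0.0236).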

How the data were processed

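Leaf and root RNA of 24 libraries was sequenced as poly(A) RNA. The authors' deposited table holds estimated counts per row, and the submitters' processing notes name Trim Galore, Bowtie2 and kallisto, without versions. Neither the genome build nor the annotation is named there. Of the values above 0, 0.991% were exactly whole, with no tolerance. Counts were summed per identifier and rounded. edgeR 4.0.16 (R 4.3.3) was used with TMM factors, its default filter (minimum count 10, minimum total 15) and robust quasi-likelihood tests. Each tissue's 12 libraries were fitted together, and all 24 for contrasts between tissues. Benjamini-Hochberg adjustment ran over all identifiers tested, with a threshold of 0.05. The estimates' precision is limited by 3 replicates per group and by how reads are divided among similar rows, so low CPM values are least precise. CPM is not corrected for length.

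Values in every library are given for members called in a SAB comparison or in its change with age, for the 2 smallest p-values where fewer than 2 were called, and for a set of central genes. Up to 6 members are given for age and for tissue. The members and all lists were chosen with earlier results of these data known. Alternatives were RLE factors, library totals alone, no filter, DESeq2 1.42.0, rows tested separately, a replicate block, 1 fit of all libraries and leaving out each library. The scripts were tested on simulated data.

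Same-numbered root and leaf libraries deviated together at day 18, with correlations of 0.37 to 0.39 in SAB plants and 0.34 to 0.39 in untreated plants. The tests between tissues used no pairing, so they ignore this link. The replicate block is a single factor of the replicate number, shared over both days and both treatments. It is therefore not a block for each root and leaf pair, and a test paired within day 18 was not run. At day 8, and between treatments or days, at least 1 of the 3 correlations was 0.1 or less.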

Additional observations from a re-analysis of the deposited data

Results flagged for a closer look

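The SAB effect differed between the days or the tissues for 10 results, each tested as an interaction with edgeR. In leaves, the effect at day 18 minus that at day 8 was -0.81 on the log2 scale for AT5G13320 (PBS3) and 1.05 for AT1G22070 (TGA3). In roots it was -1.29 for AT5G65210 (TGA1) and 2.21 for AT1G28480 (GRX480). The effect in root minus that in leaf at day 8 was -2.29 for AT5G62570 (CBP60a), -1.36 for AT3G20600 (NDR1) and -3.60 for AT1G28480. At day 18 it was -1.44 for AT5G26920 (CBP60g), -0.86 for AT5G65210 and -0.98 for AT1G22070. Each of the 10 calls was lost without at least 1 single library.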

How the results depend on the processing

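Over the 17 to 19 settings run on summed counts, each called log2 value for a SAB effect, its change with age or its difference between tissues kept its sign. Among single rows, row 1 of UGT74F2 in leaf (-0.34) and row 5 of TGA1 in root (2.42) at day 18 had the opposite sign to their sums, and neither was called. DESeq2 called 1 member in leaf and 3 in root at day 8, and 3 in root at day 18. It called 4 for the change with age in root and 5 for root minus leaf at day 18. Scaling by library totals alone called 2 members in root at day 18, 1 for the change with age in leaf and 0 for root minus leaf at day 8. It moved the median over all identifiers to 0.27 and -0.14 for the change with age in leaf and root, and to 0.18 and -0.23 for root minus leaf at day 8 and day 18. With all 24 libraries in 1 fit, the change with age gave 1 call in each tissue. With rows tested separately, it gave 0 in leaf and 1 in root, and root minus leaf at day 18 gave 0. With the replicate block, the change with age gave 0 calls in both tissues, with edgeR adjusted p of 0.0749 (PBS3), 0.0737 (TGA3), 0.053 (TGA1) and 0.0988 (GRX480). The block gave 2 calls for root minus leaf at day 8, without GRX480 (edgeR adjusted p = 0.059), and 3 at day 18. For root against leaf at day 18 it gave 24 calls against 22 without it, and it is not a block for each root and leaf pair. In the SAB comparisons the block gave 0 calls at day 8 in both tissues, 6 in leaf at day 18 and 1 in root at day 18. The cause of these differences was not tested. The shares of all identifiers called under these alternatives are not given here, so the counts are not read against a background.

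Leaving out each library in turn, calls ranged from 0 to 0 in leaf at day 8, 4 to 7 in leaf at day 18, 0 to 1 in root at day 8 and 1 to 2 in root at day 18. They ranged from 0 to 2 (leaf) and 0 to 3 (root) for the change with age, and from 0 to 4 (day 8) and 0 to 3 (day 18) for root minus leaf. In untreated plants they ranged from 8 to 13 (leaf) and 5 to 8 (root) with age, and from 19 to 22 (day 8) and 18 to 22 (day 18) for root against leaf. Without both SAB leaf libraries numbered 2, an alternative added after seeing the data, the change with age in leaf gave 0 calls, and the other leaf counts were 0 at day 8, 5 at day 18 and 11 with age.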
